A study of Mus musculus with 2 samples.

Results

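The 10 genes Cd36, Slc27a1, Fabp5, Fabp7, Acsl3, Acsl6, Acsbg1, Dgat2, Plin2 and Plin3 cover the uptake, binding and activation of fatty acids and their storage in droplets. They were taken by symbol from the 32285 genes of both count tables, and all 10 were found, whatever their level. The brain cells came from female mice homozygous for human APOE3 (E3) or human APOE4 (E4), aged 11 to 12 months, in which the human gene stands in place of mouse Apoe. Right hemispheres without brainstem and cerebellum were pooled from 3 mice per genotype after perfusion, dissociated with warmed enzymes and made into 1 droplet-based single-cell RNA library per genotype. Genotype, pool of mice, library preparation and version of the read-counting software therefore cannot be told apart, no difference between E3 and E4 was tested, and all intervals below cover counting error only.

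The E3 library held 11485 barcodes with 56415229 UMIs (unique molecular identifiers, each standing for 1 captured RNA molecule) and the E4 library 13802 barcodes with 71625170 UMIs. Medians per barcode were 3784 and 4085 UMIs. Both libraries shared 46 barcodes, at most 0.401% of either. After the filter, 11288 and 13528 cells were kept, and comparisons used the 10 classes that had 100 cells or more in both libraries, named from marker genes and written here as "-like": astrocyte (3044 cells in E3, 3528 in E4), microglia (3008, 3726), endothelial (997, 1476), oligodendrocyte (825, 984), choroid plexus (351, 389), neuroprogenitor (314, 347), meningeal (175, 181), ependymal (160, 158), erythroid (145, 113) and macrophage (118, 127). The labels call the cells non-neuronal, and few neurons were captured, with 24 and 18 neuron-like cells. Oligodendrocyte precursor-like cells numbered 4 and 5 and mural-like cells 88 and 184, so both stayed out. A further 1200 and 1215 barcodes had astrocyte markers but medians of only 770.5 and 747 UMIs, and these shallow barcodes were also kept apart.

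Long-chain fatty acids enter cells with the help of surface proteins such as CD36 and the fatty acid transport proteins. In the cytosol they travel on fatty acid binding proteins, and acyl-CoA synthetases activate them by joining them to coenzyme A. Activated fatty acids feed oxidation and membrane lipids, or are esterified to triglyceride by enzymes such as DGAT2 and stored in droplets coated by perilipins. Astrocytes are known to bind and store fatty acids in the brain, and FABP7 is a classic marker of radial glia and astrocytes.

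All 10 genes are protein-coding. On mouse build mm10, with GENCODE vM21, Cd36 lies at chr5:17781690-17888801, Slc27a1 at chr8:71568882-71587302, Fabp5 at chr3:10012548-10016607, Fabp7 at chr10:57784881-57788450, Acsl3 at chr1:78657825-78707743, Acsl6 at chr11:54303798-54364756, Acsbg1 at chr9:54604877-54661870, Dgat2 at chr7:99153658-99182719, Plin2 at chr4:86648386-86670060 and Plin3 at chr17:56277476-56292873. Acsl3 shares its strand and part of its exons with another gene, Utp14b, which lies inside it at chr1:78658038-78671512. The antisense gene Gm12224 overlaps exons of Acsl6 on the other strand. Fabp5 has near-identical processed copies elsewhere in the mouse genome, so its counts are uncertain to the extent that reads could match both.

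Upstream sequences are shown for the 5 genes with their highest level in astrocyte-like cells, so that stretches of genes sharing a cell class can be compared. Each is the stretch from 250 to 51 bases before a RefSeq start, 5′ to 3′ on the strand of the gene, in build GRCm38.p6. The stretches lie at chr8:71568621-71568820 on the plus strand for Slc27a1, chr10:57784673-57784872 plus for Fabp7, chr1:78657575-78657774 plus for Acsl3, chr11:54303574-54303773 plus for Acsl6 and chr9:54661936-54662135 minus for Acsbg1. Slc27a1 and Acsl6 have 3 such stretches each in the RefSeq table, and the first along the chromosome is printed. Capitals mark a match to 1 of the 8 motifs searched, on either strand.
Slc27a1: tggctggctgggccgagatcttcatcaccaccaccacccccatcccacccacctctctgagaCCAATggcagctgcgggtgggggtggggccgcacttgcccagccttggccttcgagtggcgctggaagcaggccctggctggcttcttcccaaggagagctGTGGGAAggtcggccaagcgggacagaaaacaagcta
Fabp7: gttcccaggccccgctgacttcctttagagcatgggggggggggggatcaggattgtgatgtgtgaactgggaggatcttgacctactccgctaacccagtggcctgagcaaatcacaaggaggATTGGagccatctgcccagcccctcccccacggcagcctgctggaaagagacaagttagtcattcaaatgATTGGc
Acsl3: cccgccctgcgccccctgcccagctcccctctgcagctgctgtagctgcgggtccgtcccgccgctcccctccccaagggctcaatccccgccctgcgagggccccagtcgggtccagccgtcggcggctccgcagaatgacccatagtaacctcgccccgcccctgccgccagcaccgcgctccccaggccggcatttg
Acsl6: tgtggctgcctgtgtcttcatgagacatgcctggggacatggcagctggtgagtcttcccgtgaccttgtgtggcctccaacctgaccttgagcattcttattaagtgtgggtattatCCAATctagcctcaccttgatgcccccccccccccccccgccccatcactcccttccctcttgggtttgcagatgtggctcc
Acsbg1: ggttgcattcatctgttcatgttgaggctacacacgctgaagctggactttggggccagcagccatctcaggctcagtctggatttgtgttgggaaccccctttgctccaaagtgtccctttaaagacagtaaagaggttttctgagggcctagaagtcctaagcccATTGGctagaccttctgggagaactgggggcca
A CCAAT box (letters CCAAT, or ATTGG on the other strand) stood in at least 1 stretch of 7 of the 8 members found in the table, all but Acsl3, and in 31.8% of the 27025 genes searched. Acsl3 matched none of the motifs and was the most GC-rich of the printed stretches, at 74.5%. The RBPJ core GTGGGAA was found for Slc27a1 and Plin2 (5.00% of genes), the E-box CACGTG for Slc27a1 (4.98%) and the SOX core ACAAAG for Acsl6 and Cd36 (15.4%). No member held the POU octamer ATGCAAAT (1.49%), the TATA box TATAAA (10.6%), a repeat of AGGTCA with 1 base between as bound by PPAR factors (0.0296%) or an NFI palindrome of TTGGC and GCCAA with 5 bases between (0.0296%). The E-box of Slc27a1 and the SOX core of Acsl6 lay in stretches not printed. Members with several stretches had more chances to match, and a match is a description of the letters, not a binding site.

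The 10 genes divided by cell class in the same way in both libraries: each had its highest level in the same class in E3 and in E4. Levels are CPM, the summed UMIs of a gene per 1000000 UMIs of the cells of a class. The members were left out of the genes used for clustering, and levels are compared between classes within a gene, not between genes. Slc27a1, Fabp7, Acsl3, Acsl6 and Acsbg1 were highest in astrocyte-like cells, Cd36 and Plin2 in macrophage-like cells, Dgat2 in ependymal-like cells, Plin3 in oligodendrocyte-like cells, and Fabp5 in neuroprogenitor-like and astrocyte-like cells alike. Astrocyte-like cells were 27.0% and 26.1% of the cells kept and held between 53.6% and 78.3% of all UMIs of Slc27a1, Fabp5, Fabp7, Acsl3, Acsl6 and Acsbg1 in E3.

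**Figure D1:**
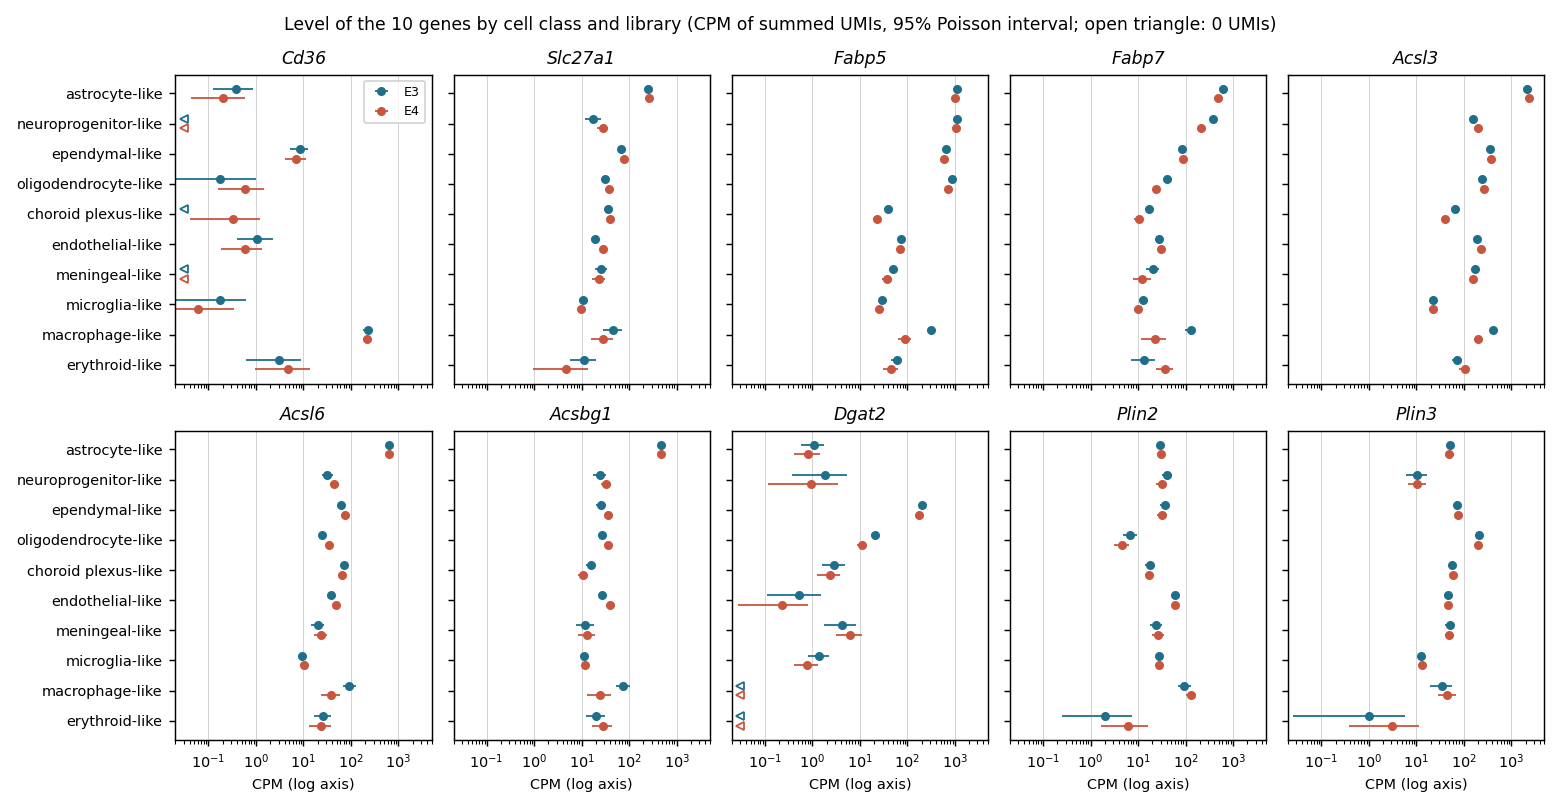
Level of each gene (CPM on a log axis) in 10 cell classes of the E3 (blue) and E4 (red) library, with the exact 95% Poisson interval of the summed UMIs. Open triangles at the left edge mark classes with 0 UMIs. Cd36 and Dgat2 each stood high in 1 class, while Plin2 spread over most.

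Uptake was divided between cell classes. Cd36, a scavenger receptor and fatty acid translocase, was read in macrophage-like cells, the brain's border macrophages, at 224 CPM in E3 (95% interval 183 to 272) and 216 CPM in E4 (179 to 260). The next class, ependymal-like cells, had 8.31 CPM in E3 and 7.13 in E4, so macrophage-like cells stood 27.0-fold and 30.3-fold above it. They held 62.7% and 64.2% of all Cd36 UMIs of their libraries while making up 1.05% and 0.939% of the cells. Microglia-like cells, their close relatives, carried 2 and 1 Cd36 UMIs in all. No Cd36 UMI was found in neuroprogenitor-like cells, which allows up to 1.82 CPM in E3 and 1.43 CPM in E4 (3 counts), or in meningeal-like cells, which allows up to 1.56 and 1.69 CPM. A Cd36 UMI was seen in 45.8% of macrophage-like cells in E3 and 45.7% in E4, and in 0.0665% and 0.0268% of microglia-like cells. Endothelial-like cells, where Cd36 is known from other organs, stood at 1.06 and 0.574 CPM.

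Slc27a1, which encodes the fatty acid transport protein FATP1, was an astrocyte gene here. Its 95% interval in astrocyte-like cells was 242 to 259 CPM in E3 and 249 to 266 CPM in E4, followed by 66.8 and 78.5 CPM in ependymal-like cells. Outside erythroid-like cells the lowest class was microglia-like, at 10.5 and 9.81 CPM. After each cell was thinned to 1000 UMIs, 21.8% and 22.2% of astrocyte-like cells had an Slc27a1 UMI, against at most 1.05% of microglia-like cells.

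The binding proteins differed from each other. Fabp5 was high in 4 classes: 1138 CPM (1087 to 1190) and 1037 CPM (994 to 1081) in neuroprogenitor-like cells, 1137 CPM (1119 to 1155) and 1021 CPM (1005 to 1038) in astrocyte-like cells, 883 and 703 CPM in oligodendrocyte-like cells, and 653 and 582 CPM in ependymal-like cells. Intervals of the top 2 classes overlapped in both libraries, so their order was not resolved. Fabp7 was narrower, with 619 CPM (605 to 632) and 490 CPM (478 to 501) in astrocyte-like cells and 372 CPM (343 to 403) and 207 CPM (188 to 228) in neuroprogenitor-like cells. Oligodendrocyte-like cells, rich in Fabp5, had only 41.4 and 24.4 CPM of Fabp7. A Fabp7 UMI was found in 67.8% and 65.4% of astrocyte-like cells, but in 25.8% and 25.9% of neuroprogenitor-like cells, and in 4.22% and 3.95% of microglia-like cells, a class that should lack it. Median depths of those 3 classes were 4019 and 3985.5 UMIs, 3808 and 4645 UMIs, and 3719 and 4285 UMIs. At 1000 UMIs per cell the shares were 34.1% and 31.8%, 8.85% and 6.95%, and 1.25% and 0.976%.

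All 3 activating enzymes were led by astrocyte-like cells. Acsl3, a long-chain acyl-CoA synthetase found on the endoplasmic reticulum and nascent droplets, had levels of 2184 CPM (E3, 2158 to 2209) and 2388 CPM (E4, 2364 to 2413). At equal depth 86.7% and 88.4% of astrocyte-like cells had an Acsl3 UMI, against 2.06% and 2.49% of microglia-like cells. Outside astrocytes, Acsl3 was 418 and 200 CPM in macrophage-like, 357 and 375 CPM in ependymal-like, 247 and 270 CPM in oligodendrocyte-like and 188 and 227 CPM in endothelial-like cells. These levels stood beside astrocyte markers in the same classes, whose ratio to Acsl3 follows. Acsl6, a brain synthetase known for handling docosahexaenoic acid, stood at 622 CPM (608 to 635) and 644 CPM (631 to 657) in astrocyte-like cells, and no other class was above 92.7 CPM in E3 or 76.2 CPM in E4. Acsbg1, the bubblegum synthetase of very long chains, stood at 472 CPM (460 to 484) and 475 CPM (464 to 486), and no other class was above 75.5 CPM in E3 or 40.4 CPM in E4.

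Storage genes were led by 3 different classes. Dgat2, the enzyme of the last step of triglyceride synthesis, was an ependymal gene: 207 CPM (E3, 190 to 225) and 177 CPM (E4, 160 to 195), with a UMI in 79.4% and 75.9% of the cells. Ependymal-like cells, the ciliated lining of the ventricles, held 69.8% and 72.3% of all Dgat2 UMIs. Oligodendrocyte-like cells came next at 20.4 and 10.8 CPM. Astrocyte-like cells, highest for the activating enzymes, had 1.06 CPM (0.580 to 1.78) and 0.813 CPM (0.420 to 1.42) of Dgat2. No Dgat2 UMI was found in macrophage-like cells, which allows up to 6.47 and 5.65 CPM, or in erythroid-like cells, which allows up to 3.05 and 4.67 CPM.

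Plin2, the droplet coat protein whose level is known to follow stored lipid, was highest in macrophage-like cells, with 94.9 CPM (69.0 to 127) and 129.9 CPM (101 to 164). Endothelial-like cells followed with 59.5 CPM (53.3 to 66.2) and 58.8 CPM (53.9 to 64.2). Astrocyte-like cells at 29.3 and 30.4 CPM and microglia-like cells at 27.9 and 27.1 CPM had overlapping intervals. Oligodendrocyte-like cells were low at 6.86 and 4.48 CPM. Plin3, a coat protein that exchanges between cytosol and droplets, had the opposite leader: 209 CPM (197 to 221) and 203 CPM (193 to 214) in oligodendrocyte-like cells, against 71.6 and 76.2 CPM in ependymal-like cells. A Plin3 UMI was found in 46.3% and 47.4% of oligodendrocyte-like cells and in 4.39% and 5.66% of microglia-like cells. At equal depth the shares of E4 were 14.3% and 1.60%.

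Free RNA of astrocytes can add UMIs to other classes, so the members were set beside 10 astrocyte markers (Aldoc, Aqp4, Gja1, Aldh1l1, Slc1a2, Slc1a3, Slc4a4, Gjb6, Ntsr2 and Clu). The markers summed to 23549 and 23781 CPM in astrocyte-like cells, 647 and 671 CPM in microglia-like cells and between 1028 and 5479 CPM in the other classes of E3. Acsbg1 stood between 1.63% and 2.19% of marker UMIs in astrocyte-like, microglia-like, endothelial-like, oligodendrocyte-like and neuroprogenitor-like cells of both libraries. It was 2.11% and 1.38% in macrophage-like and 1.98% and 2.31% in erythroid-like cells. Lower ratios were found in choroid plexus-like (0.775% and 0.589%), ependymal-like (0.476% and 0.701%) and meningeal-like cells (0.479% and 0.484%). Ependymal-like sub-clusters ran from 3592 to 10939 CPM of the markers. Whether classes other than astrocyte-like express some of the markers themselves was not tested, so these ratios are not read as a measure of astrocyte RNA. The low Acsbg1 levels outside astrocyte-like cells are not read here as expression, and how much of them was RNA from astrocytes was not tested. Acsl3 differed, with 9.27% and 10.0% in astrocyte-like but 18.2% and 16.2% in oligodendrocyte-like cells, while it was near or below the astrocyte-like value at 11.7% and 11.3% in macrophage-like, 11.2% and 11.1% in endothelial-like and 6.52% and 7.18% in ependymal-like cells. These class ratios include sub-clusters high in astrocyte markers. Without those, endothelial-like cells had 113 and 129 CPM of Acsl3 beside 769 and 780 CPM of markers. Macrophage-like cells then had 113 and 79.8 CPM of Acsl3 beside 675 and 523 CPM. In both classes and both libraries this was a higher ratio to the markers than in astrocyte-like cells. The largest endothelial-like sub-cluster (418 cells) had 139 CPM of Acsl3 beside 285 CPM of markers. The one highest in markers (128 cells) had 1079 CPM beside 12815 CPM. How much of the Acsl3 outside astrocyte-like cells was RNA from astrocytes was not tested. Fabp5 stood at 4.83% and 4.29% in astrocyte-like but 64.8% and 42.1% in oligodendrocyte-like cells. Fabp7 stood at 2.63% and 2.06% in astrocyte-like and 29.5% and 11.6% in neuroprogenitor-like cells.

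**Figure D2:**
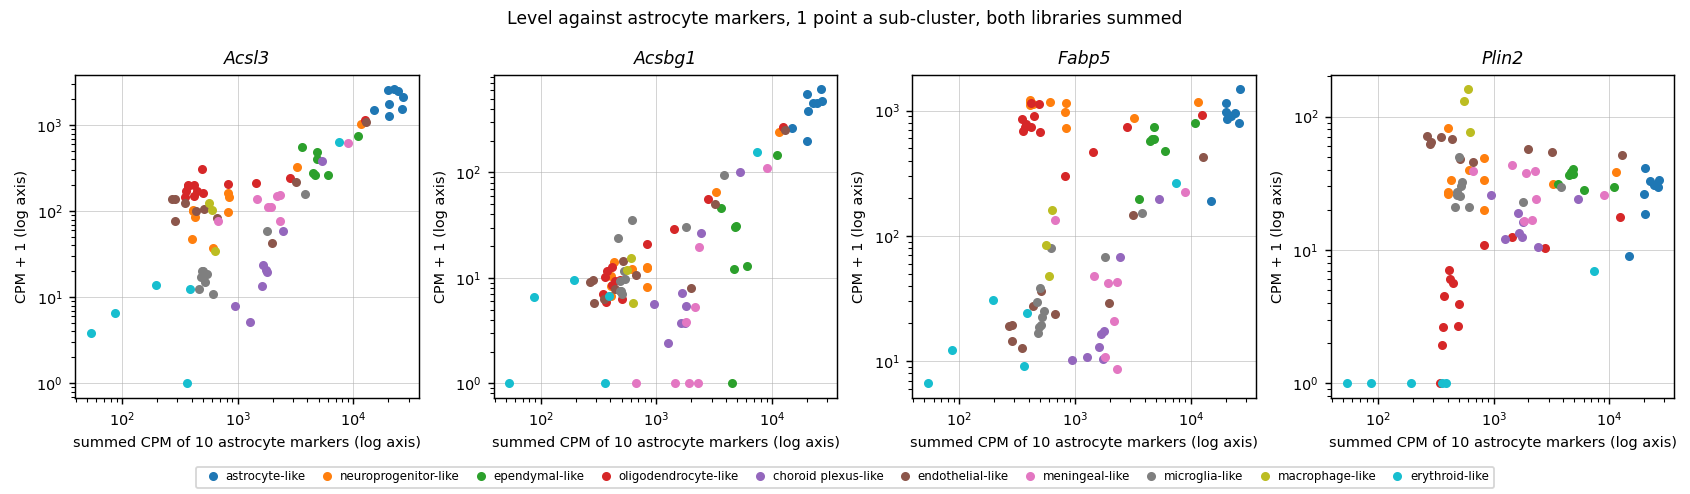
Level of Acsl3, Acsbg1, Fabp5 and Plin2 (CPM + 1, log axis) against the summed CPM of 10 astrocyte markers (log axis), with 1 point for each sub-cluster of the 10 classes, both libraries summed. Acsbg1 followed the markers across most classes, Fabp5 was high in oligodendrocyte-like and neuroprogenitor-like sub-clusters with few astrocyte markers, and Plin2 did not follow them.

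Within classes, some members were uneven between sub-clusters, which are named here by their leading genes. In astrocyte-like cells Fabp7 ranged from 121 CPM in the Utp14b-led sub-cluster to 1639 CPM (1572 to 1709) in the one led by Myoc, 6330403K07Rik, Gfap and Thbs4 (181 cells of both libraries). That sub-cluster also had the highest sum of 6 Gfap and Vim high astrocyte genes, 7322 CPM, and the lowest levels of Acsl3 (1275 CPM), Acsbg1 (200 CPM) and Slc27a1 (119 CPM) among the 8. Fabp5 was highest, at 1482 CPM (1455 to 1510), in the sub-cluster led by the telencephalic genes Hes5, Fezf2 and Lhx2. Acsl6 was highest at 780.0 CPM (755 to 805) in the sub-cluster led by Igsf1 and Agt, the one with the highest sum of non-telencephalic astrocyte genes, 4611 CPM.

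Neuroprogenitor-like cells were uneven for Fabp7. The 45 cells led by Hist1h1b, Helt and Pclaf had 626 CPM (561 to 698), while the 3 sub-clusters with the lowest values, led by Adarb2 or Igfbpl1 together with Sp9, Prokr2 or Sp8, had 12.6 to 19.6 CPM. Fabp5 was more even, with all 10 sub-clusters between 720 and 1213 CPM. Fabp5 thus stayed high in sub-clusters where Fabp7 rested on 3 to 6 UMIs.

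Among oligodendrocyte-like cells the droplet genes pointed to different sub-clusters. Plin3 reached 679 CPM (635 to 725) in the sub-cluster led by Klk6 and Nkx2-9 and 361 CPM (333 to 390) in the one led by Enpp6 and Anln, but 13.5 CPM (5.84 to 26.6) in the 39 cells led by Tac1 and Ctps. Dgat2 had the reverse pattern in those sub-clusters, with 91.2 CPM (68.5 to 119) in the Tac1-led cells, 5.28 CPM in the Klk6 and Nkx2-9-led and 1.76 CPM in the Enpp6-led cells. Cd36 in macrophage-like cells ranged from 99.6 CPM (61.7 to 152) in the sub-cluster led by the class II genes H2-Eb1 and H2-Aa to 416 CPM (344 to 500) in the one led by Wfdc17, Cd163 and Mrc1. Plin2 in microglia-like cells was highest, at 49.1 CPM (37.6 to 63.1), in the sub-cluster led by Ccl4, Ccl3 and Tnf, against 19.8 to 31.5 CPM in the other 9.

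**Figure D3:**
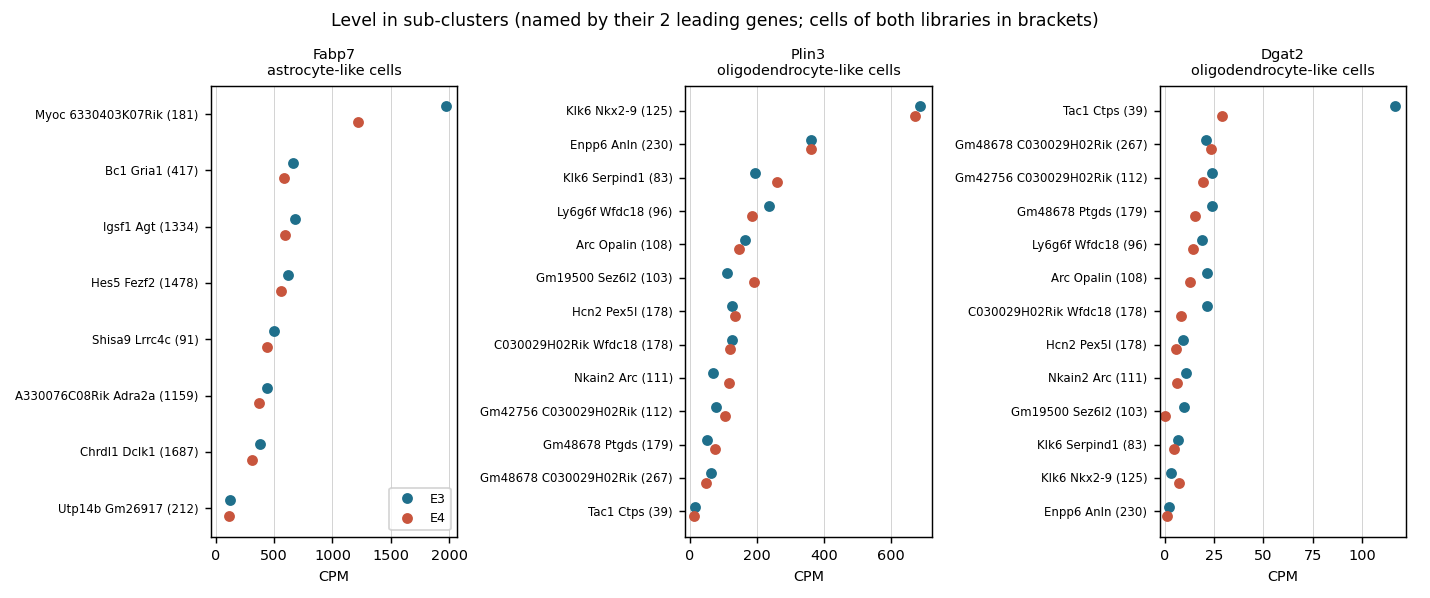
Level (CPM) of Fabp7 in sub-clusters of astrocyte-like cells, and of Plin3 and Dgat2 in sub-clusters of oligodendrocyte-like cells, with E3 in blue and E4 in red. Fabp7 was highest in the Myoc-led sub-cluster (1976 and 1219 CPM), and Dgat2 in Tac1-led cells was 116 CPM in E3 and 29.3 CPM in E4.

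E4 was then set against E3. Each member was followed in each class, 100 pairs in all, and 72 had at least 50 UMIs over both libraries and are called measured. A pair was counted as apart when its CPM differed at least 1.5-fold either way. By this rule 13 of the 72 pairs were apart, 1 higher and 12 lower in E4. Of all genes measured in a class, the share apart ran from 3.29% in astrocyte-like to 26.2% in erythroid-like cells. Erythroid-like cells gave 2 of the 72 pairs and 0 of the 13, and the next highest share was 14.2%, in macrophage-like cells. A share of all genes pooled over the classes was not computed. The 95% interval of the log2 ratio left out 0 in 32 pairs, and the share of all genes for this was not computed. None of the 13 was in astrocyte-like, microglia-like or endothelial-like cells, the 3 most numerous classes.

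In astrocyte-like cells 8 members were measured and 0 were apart, where 3.29% of all 12418 measured genes were. Their median log2 ratio E4 to E3 was 0.03, beside 0.02 over all genes. Fabp7 was lower in E4, 490 against 619 CPM, a log2 ratio of -0.34 (-0.38 to -0.29), and 2.20% of the 9688 genes with at least 200 UMIs had a lower ratio. Fabp5 stood at -0.15 (-0.19 to -0.12), with 13.5% of those genes lower. Acsl3 was slightly higher in E4 at 0.13 (0.11 to 0.15), with 23.7% of genes higher. Acsl6 at 0.05 (0.01 to 0.09), Slc27a1 at 0.04 (-0.02 to 0.11) and Acsbg1 at 0.01 (-0.04 to 0.06) were nearly level. The droplet coat genes had wider intervals that held 0, at 0.05 (-0.15 to 0.25) for Plin2 and -0.10 (-0.26 to 0.05) for Plin3.

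The lower Fabp7 of E4 was seen in each of the 8 astrocyte-like sub-clusters, at log2 ratios from -0.70 to -0.13, and 5 intervals lay below 0. It was not seen in the shallow barcodes with astrocyte markers, which were kept apart. Fabp7 there was 587 CPM in E3 and 626 CPM in E4 (0.09, -0.06 to 0.25). Among the sub-clusters the difference was largest in the Myoc-led, Gfap-rich one, with 1976 CPM in E3 and 1219 CPM in E4 (-0.70, -0.83 to -0.57). The values that follow are of this sub-cluster. There Acsl6 was 491 and 302 CPM (-0.70, -0.97 to -0.44), Acsbg1 240.2 and 149 CPM (-0.69, -1.07 to -0.31), Slc27a1 141 and 92.9 CPM (-0.60, -1.09 to -0.12), and Acsl3 1397 and 1121 CPM (-0.32, -0.46 to -0.18). With Fabp5 at -0.28 (-0.42 to -0.13), 6 members of this sub-cluster had an interval below 0, while Acsl3 and Acsl6 of the whole class had one above 0. The share of all genes with such an interval in this sub-cluster was not computed. The summed astrocyte markers of this sub-cluster were also lower in E4, at 22493 CPM in E3 against 17393 in E4, and their part in these ratios was not tested.

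In microglia-like cells 8 members were measured and 0 were apart, where 3.34% of 11277 genes were. Their median was -0.03, beside 0.05 over all genes. Plin2, at 27.9 and 27.1 CPM, had a log2 ratio of -0.05 (-0.26 to 0.16). Fabp7 at -0.34 (-0.67 to -0.01) was the only member whose interval left out 0, at a level of 12.6 and 9.99 CPM. Without the microglia-like sub-clusters high in astrocyte markers it was 8.38 and 7.45 CPM, at -0.17 (-0.59 to 0.25). Endothelial-like cells had 0 of 8 measured members apart, where 4.74% of 10935 genes were. Intervals of 4 members there lay above 0: Acsbg1 at 0.56 (0.28 to 0.84), Slc27a1 at 0.55 (0.22 to 0.89), Acsl6 at 0.38 (0.15 to 0.63) and Acsl3 at 0.27 (0.16 to 0.38). Astrocyte markers summed to 1681 CPM in E3 and 2038 CPM in E4 of this class. Without its 128 cells high in astrocyte markers (769 and 780.2 CPM left), Acsl6 was at -0.06 (-0.45 to 0.32) and the median of the 8 members went from 0.19 to -0.04. Slc27a1 at 0.46 (-0.04 to 0.98) and Acsbg1 at 0.38 (-0.09 to 0.86) stayed above 0, with intervals that held 0. Acsl3 kept an interval above 0 at 0.19 (0.04 to 0.34).

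Neuroprogenitor-like cells had 2 of 7 measured members apart, where 8.15% of 7801 genes were (6.09% higher and 2.06% lower in E4). Fabp7 had 372 CPM in E3 against 207 in E4, a log2 ratio of -0.84 (-1.02 to -0.66). Most of this came from the 45 cells led by Hist1h1b, Helt and Pclaf, in which Fabp7 was 1100 CPM in E3 and 238 CPM in E4. Without them the ratio was -0.30 (-0.52 to -0.09) and no longer past 1.5-fold. Slc27a1 was higher in E4 at 28.1 against 17.6 CPM, 0.68 (0.01 to 1.37), on 29 and 59 UMIs. Astrocyte markers were 1259 and 1787 CPM in this class, and without the 40 cells led by Dlx6os1, Adarb2 and Mir124a-1hg, where these markers summed to 11523 CPM, Slc27a1 was 10.3 and 15.5 CPM (0.59, -0.34 to 1.56), on 16 and 30 UMIs and so below the minimum. Immediate-early and chemokine genes summed to 914 CPM in E3 against 1982 in E4 of this class, and their part in these ratios was not tested.

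Oligodendrocyte-like cells had 3 of 9 measured members apart, where 7.27% of 10203 genes were (1.59% lower in E4). Dgat2 was 20.4 CPM in E3 and 10.8 CPM in E4, on 116 and 75 UMIs, a log2 ratio of -0.91 (-1.35 to -0.48). The Tac1-led sub-cluster, with 26 cells in E3 and 13 in E4, held 54 of these UMIs, and without it Dgat2 was 12.7 and 10.4 CPM, a ratio of -0.30 (-0.80 to 0.21). Plin2 was 6.86 and 4.48 CPM, at -0.61 (-1.34 to 0.10). Fabp7 was 41.4 and 24.4 CPM, at -0.76 (-1.05 to -0.47), but 14.1 and 15.5 CPM, at 0.14 (-0.31 to 0.59), without the 83 cells high in astrocyte markers, and at 0.077 with cells called doublets left out. Fabp5 was 883 and 703 CPM, at -0.33 (-0.38 to -0.27), and 2.44% of the 6684 genes with at least 200 UMIs had a lower ratio. Each of the 13 oligodendrocyte-like sub-clusters had the lower Fabp5 value in E4, 8 of them with an interval below 0. Plin3 was level, at 209 and 203 CPM (-0.04, -0.15 to 0.07). Intervals of 4 members lay above 0: Acsbg1 at 0.47 (0.17 to 0.77), Acsl6 at 0.45 (0.15 to 0.77), Slc27a1 at 0.33 (0.04 to 0.61) and Acsl3 at 0.13 (0.03 to 0.23). Astrocyte markers summed to 1362 CPM in E3 and 1671 CPM in E4 of this class. Without the 83 cells high in them, the intervals of these 4 members held 0, with Acsl3 at -0.09 (-0.21 to 0.03). The part of the markers in these ratios was not tested.

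Macrophage-like cells had 4 of 6 measured members apart, all lower in E4, where 14.2% of 3217 genes were apart and 6.53% lower. Fabp5 was 308 CPM in E3 and 88.5 CPM in E4 (-1.80, -2.31 to -1.32), Fabp7 129 and 22.6 CPM (-2.52, -3.55 to -1.61), Acsl3 418 and 200 CPM (-1.07, -1.42 to -0.72) and Acsl6 92.7 and 37.6 CPM (-1.30, -2.14 to -0.50). The summed astrocyte markers moved with them, 3582 CPM in E3 against 1767 in E4. Without 13 cells of E3 and 6 of E4 that were high in these markers, 675 and 523 CPM of them were left, and Acsl3 stood at -0.51 (-1.18 to 0.16). Fabp5 alone remained apart, at 145 and 48.3 CPM (-1.59, -2.36 to -0.86), on 55 and 23 UMIs, while Fabp7 and Acsl6 had too few UMIs to be measured. Of these 78 Fabp5 UMIs 34 came from the sub-cluster led by H2-Eb1 and H2-Aa, with 281 CPM in E3 and 38.4 CPM in E4 on 25 cells each (-2.87, -4.84 to -1.37), and the other 2 sub-clusters had intervals that held 0. Astrocyte markers of the H2-Eb1-led cells were 853 CPM in E3 and 404 CPM in E4, oligodendrocyte markers of the whole class were 1065 and 540.2 CPM, and their part in this ratio was not tested. Cd36, which marks the class, did not differ beyond counting error at -0.05 (-0.45 to 0.35), nor did Plin2 at 0.45 (-0.11 to 1.03). Inside the class, Cd36 of the sub-cluster led by Wfdc17, Cd163 and Mrc1 was 623 CPM in the 29 cells of E3 and 327 CPM in the 49 cells of E4 (-0.93, -1.49 to -0.37).

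Choroid plexus-like cells had 3 of 8 measured members apart, where 5.63% of 9271 genes were (2.68% lower in E4). Fabp5 was 38.2 and 22.6 CPM (-0.76, -1.09 to -0.43), Fabp7 17.3 and 10.5 CPM (-0.72, -1.22 to -0.23) and Acsl3 64.3 and 39.4 CPM (-0.71, -0.96 to -0.46). Without the 50 cells high in astrocyte markers these were -0.33 (-0.86 to 0.19), -0.10 (-0.87 to 0.68) and -0.19 (-0.65 to 0.27). With cells called doublets left out, Fabp5 stood at 0.015 and Acsl3 at 0.31. Acsl6 was 70.1 and 65.5 CPM, at -0.10 (-0.31 to 0.11). Meningeal-like cells had 1 of 7 measured members apart, where 7.08% of 7575 genes were (2.89% lower), namely Fabp7 at 20.8 and 12.4 CPM (-0.75, -1.57 to 0.04). Without the 21 meningeal-like cells high in astrocyte markers, Fabp7 was on 14 and 12 UMIs and so below the minimum. Ependymal-like cells had 0 of 9, where 5.74% of 9456 genes were apart, and Dgat2 there was lower in E4 at -0.22 (-0.42 to -0.03). Erythroid-like cells had 0 of 2, where 26.2% of 473 genes were apart, and haemoglobin stood at 885779 and 861709 CPM.

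**Figure D4:**
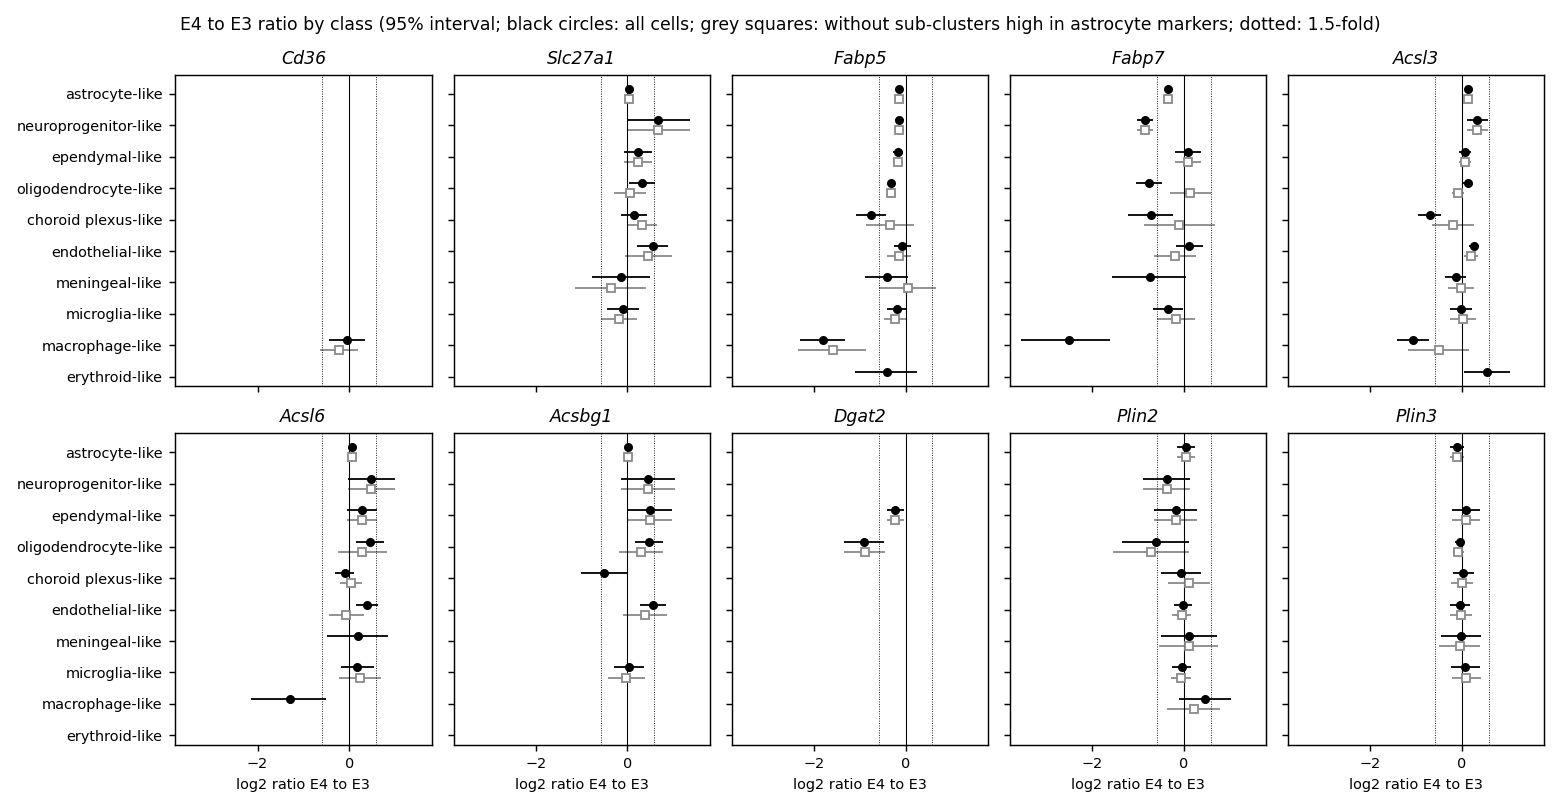
Log2 ratio of CPM, E4 to E3, of each gene by class with its 95% interval, for the measured pairs (black circles), and again without the sub-clusters high in astrocyte markers (grey squares, a setting added after the data were seen). Dotted lines mark 1.5-fold. The black circles of Fabp5 lay left of 0 in all 10 classes. In grey, Fabp5 was at 0.04 in meningeal-like cells and not measured in erythroid-like cells. The low values of Fabp7 and Acsl3 in choroid plexus-like cells moved towards 0 in grey.

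Without 9 sub-clusters whose astrocyte markers were more than 2-fold those of their class (922 cells, a setting chosen after the data were seen), 65 pairs were measured and 5 remained apart. These were Fabp7 and Slc27a1 in neuroprogenitor-like cells, Fabp5 in macrophage-like cells, and Dgat2 and Plin2 in oligodendrocyte-like cells. The share of all genes apart was not computed under this setting, so the 5 are not read as more than other genes show. With all cells kept it was 8.15% in neuroprogenitor-like, 14.2% in macrophage-like and 7.27% in oligodendrocyte-like cells. The astrocyte-like, neuroprogenitor-like and ependymal-like classes were not part of this setting, so that the Dlx6os1-led neuroprogenitor-like cells, with 11523 CPM of these markers, were kept and the ratios of Fabp7 and Slc27a1 there could not change. What part the astrocyte RNA had in the remaining ratios was not tested.

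Fabp5 was the member with the steadiest direction. It was lower in E4 in all 10 classes, though the interval held 0 in the endothelial-like, microglia-like, meningeal-like and erythroid-like ones, and in the 9 classes other than erythroid-like its log2 ratio ran from -1.80 to -0.07. Of 2615 genes measured in all 9, 110 (4.21%) were lower in every class. Sub-clusters gave the same sign in 8 of 8 astrocyte-like, 13 of 13 oligodendrocyte-like, 9 of 9 microglia-like, 7 of 8 endothelial-like, 5 of 6 ependymal-like and 6 of 10 neuroprogenitor-like ones with enough UMIs. Fabp5 was 4.45% and 3.74% of astrocyte marker UMIs in microglia-like and 4.42% and 3.47% in endothelial-like cells. These values were near the 4.83% and 4.29% of astrocyte-like cells, and the part of astrocyte RNA in the Fabp5 ratios of those classes was not tested. Without the sub-clusters high in astrocyte markers the meningeal-like ratio was 0.04 (-0.57 to 0.66) and that of erythroid-like cells was not measured, and Fabp5 was lower in the other 8 classes. With doublet calls left out, the choroid plexus-like ratio was 0.015 (-0.45 to 0.49) and the endothelial-like one was also just above 0, with an interval that held 0. All classes share the same 2 libraries, so they do not repeat the comparison. RNA assigned to genes that overlap ribosomal RNA was lower in E4 as well, at 37594 and 16705 CPM in astrocyte-like cells, and its part in these ratios was not tested.

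Other genes of fatty acid handling were taken from 8 lists on uptake and lipase release, binding, activation, triglyceride and sterol ester synthesis, droplet coat and growth, lipolysis, mitochondrial entry and fatty acid sensing. Of their 83 genes 81 were in the files. In astrocyte-like cells 54 were measured, 31 higher and 23 lower in E4, and 0 were past 1.5-fold, with a median log2 ratio of 0.05. In microglia-like cells 45 were measured, 31 higher and 14 lower, again with 0 past 1.5-fold and a median of 0.07. In endothelial-like cells 47 were measured, 25 higher and 22 lower, and the median was 0.01. Of all genes measured, 53.8%, 60.8% and 63.1% were higher in E4 of these 3 classes in that order. The 2 of 47 genes past 1.5-fold in endothelial-like cells, where 4.74% of all genes were, were Acsf2, an acyl-CoA synthetase family member, with 2.12 CPM against 5.51 CPM in E4 (1.37, 0.44 to 2.42, on 12 and 48 UMIs), and Ppargc1a, the coactivator PGC-1alpha, at 4.96 and 11.1 CPM (1.17, 0.55 to 1.83, on 28 and 97 UMIs). These counts stood beside the shift of astrocyte markers in that class given above, whose part was not tested.

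The list genes with the highest CPM were led by Dbi, the acyl-CoA binding protein, in all 3 classes. Dbi was 2493 CPM in E3 and 2121 CPM in E4 of astrocyte-like cells (-0.23, -0.26 to -0.21), 221 and 212 CPM in microglia-like cells (-0.06, -0.14 to 0.01) and 392 and 377 CPM in endothelial-like cells (-0.06, -0.13 to 0.02). Next came Agpat5, an acyltransferase, at 502 and 521 CPM in astrocyte-like cells (0.05, 0.01 to 0.10), Scp2, a sterol carrier protein, and the droplet protein gene Hsd17b11 in microglia-like cells at 152 CPM each in E3 (0.01, -0.08 to 0.10, and -0.08, -0.17 to 0.01), and Mfsd2a, the transporter of lysolipids with docosahexaenoic acid, in endothelial-like cells (295 and 264 CPM, -0.16, -0.25 to -0.07). Cav1, the caveolin coat protein, was second in endothelial-like cells of E4 (293 and 325 CPM, 0.15, 0.06 to 0.24).

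The genes most like each member over the 20 points of 10 classes and 2 libraries were listed by Pearson's r of log2(CPM + 10) among 7951 genes. The points share libraries and depth, so the values are descriptions. Cd36 was most like Folr2 (0.98), Clec4n (0.98) and Clec10a (0.98), Slc27a1 like Ugp2 (0.97), Lgi1 (0.95) and Nat8f1 (0.95), and Fabp5 like Ncam1 (0.98), Pou3f3 (0.97) and Lrrc4b (0.97). Fabp7 was most like Ncan (0.98), Lhx2 (0.97) and Tagln3 (0.97). Acsl3 was most like Utp14b (0.98), the gene that lies inside it on the same strand, then Ttyh1 (0.96) and Atp1b2 (0.94). Acsl6 was most like Gabrb1 (0.97), Aldh1l1 (0.97) and Nim1k (0.97), and Acsbg1 like Aldoc (0.99), Scrg1 (0.99) and Baalc (0.98). Dgat2 went with Kif6 (0.99), Barx2 (0.99) and Erich3 (0.98), Plin3 with Iqsec1 (0.95), Kat2b (0.94) and Dlg1 (0.90), and Plin2 only with weaker matches, Wdr36 (0.90), Osbpl9 (0.88) and Dr1 (0.87). Among the members themselves the closest pairs were Slc27a1 and Acsl6 (0.93), Acsl6 and Acsbg1 (0.91) and Acsl3 and Acsbg1 (0.88).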

How the data were processed

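The authors pooled hemispheres of 3 mice per genotype, prepared 10x Chromium v3 libraries and counted reads with Cell Ranger on mm10. The file headers name version 6.1.2 for E3 and 6.1.1 for E4. The annotation name is not given in the sources used here. The deposited values are raw UMI counts per gene and barcode, with no normalization. The members and lists were chosen with earlier results of these data known.

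The filter of the study's methods was applied (UMI count from 50 to 50000, mitochondrial share up to 30%), which left more cells than the study's plots hold. With scanpy 1.11.5, 2000 variable genes without the members were reduced to 20 components, joined in a graph of 15 neighbours and clustered by the Leiden method at resolution 1, then clustered again within each class. A class name needed 3 markers at least 2-fold over the rest and in 20% of cells. Sub-clusters that held another class's markers as well, or whose median UMI count was more than 3-fold below that of their samples, were left out. Clusters under 250 cells with the markers of more than 1 class were left out as doublets, and a simulated-doublet score, used only in an alternative, called 4.46% of E3 and 5.59% of E4 cells. Cells outside the compared classes made up 19.1% and 18.5%.

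Counts were summed per class and library. Intervals are exact (Poisson for CPM, binomial for shares, the binomial split of the counts for ratios) at 95%. With 1 library per genotype there was no test. Text names all 10 members, for each the 3 most alike genes (at least 200 UMIs in all and 50 CPM in a class), and those list genes past 1.5-fold or among the 2 highest in the astrocyte-like, microglia-like and endothelial-like classes. The scripts were tested on simulated data. The values of 1 neuroprogenitor-like sub-cluster are not reported here. Alternatives covered the cell filter, doublets, clustering, scaling, thinning, weighting, UMI minimum and cells kept. Per-sample columns of no known sample numbered 0. Gene positions come from GENCODE vM21 (all 10 members matched) and upstream stretches from RefSeq (8 of 10 members).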

Additional observations from a re-analysis of the deposited data

Results flagged for a closer look

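Acsl3, Acsl6 and Acsbg1 had E4 to E3 ratios of opposite sign in pairs of classes, each with an interval that left out 0. The differences between classes were not tested. Acsl3 stood at 0.55 in erythroid-like cells and -1.07 in macrophage-like cells. Acsl6 stood at 0.45 in oligodendrocyte-like cells and -1.30 in macrophage-like cells. Acsbg1 stood at 0.56 in endothelial-like cells and -0.51 in choroid plexus-like cells. Summed astrocyte markers were 1681 and 2038 CPM in endothelial-like cells, 1362 and 1671 CPM in oligodendrocyte-like cells and 3582 and 1767 CPM in macrophage-like cells of E3 and E4. Without the sub-clusters high in these markers, some of these ratios had too few UMIs to be measured. Those were Acsl3 in erythroid-like, Acsl6 in macrophage-like and Acsbg1 in choroid plexus-like cells. The others then had intervals that held 0. They stood at -0.51 (-1.18 to 0.16) for Acsl3 in macrophage-like, 0.29 (-0.23 to 0.82) for Acsl6 in oligodendrocyte-like and 0.38 (-0.09 to 0.86) for Acsbg1 in endothelial-like cells.

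The 1200 and 1215 shallow barcodes with astrocyte markers, which entered no comparison, carried 1647 CPM of Fabp5 in E3 and 1469 CPM in E4, and 634 and 672 CPM of Acsbg1. Both genes were thus above their level in every compared class, while Acsl3 in these barcodes was lower than in astrocyte-like cells, at 1305 and 1433 CPM.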

How the results depend on the processing

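The 10 members had the same highest class in E3 and E4 in 9 or 10 cases under each alternative. At least 1000 UMIs and at most 10% mitochondrial UMIs left 7 classes and no macrophage-like class, so that Cd36 was then highest in ependymal-like and Plin2 in endothelial-like cells. Fabp5 was highest in astrocyte-like cells under 5 of 18 alternatives in E3 and 2 in E4. The count of 13 pairs apart was 7 without doublet calls, 3 with cells thinned to 1000 UMIs (35 measured), 5 at a minimum of 200 UMIs (49 measured) and 5 without sub-clusters high in astrocyte markers. It was between 11 and 17 under the others. Doublet calls left out gave log2 ratios of 0.015 for Fabp5 and 0.31 for Acsl3 in choroid plexus-like cells and 0.077 for Fabp7 in oligodendrocyte-like cells, which was 0.14 without sub-clusters high in astrocyte markers. Over all member ratios, 1030 repeats stayed within the counting interval of the value reported, 54 lay outside it and 4 turned the sign of a pair that was apart. In all 63 of the 1088 repeats had the other sign from the value reported, 59 of them for pairs that were not apart. The cause was not tested. Alternatives that leave out such sub-clusters, the Hist1h1b-led, the Dlx6os1-led or the Tac1-led cells, or shared barcodes, were chosen after seeing the data. No library could be left out, with 1 per genotype. No paired analysis was possible because each genotype has 1 library and no replicate number. Depth limited Cd36 and Dgat2, which had under 50 UMIs in most classes.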
